A study of Mus musculus with 12 samples.

Results

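The 10 genes described here mark red pulp macrophages, the spleen's haem-recycling phagocytes, and were followed in RNA sequencing of sorted splenic dendritic cells. The members were taken by symbol and are C1qa, C1qb, C1qc, Cd5l, Vcam1, Hmox1, Spic, Slc40a1, Mertk and Cd163. All 10 were found among the 27179 genes of the count table, and all 10 passed the filter on low counts. The libraries came from conventional dendritic cells of type 1 (cDC1) or type 2 (cDC2), isolated from collagenase- and DNAse-digested spleens of female C57/BL6 mice. The 4 groups were cDC1 of Zfp366-/- mice (KO), cDC1 of wild-type mice (WT), cDC2 of KO mice and cDC2 of WT mice, with 3 libraries each, so n = 3 for every mean below. The Zfp366 product, DC-SCRIPT, is a nuclear protein with zinc fingers. According to the labels, 6 pools of mice (3 KO and 3 WT) were used, with both subsets taken from every pool. The labels give no age, name no Cre or promoter, and do not say which part of Zfp366 was deleted.

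Red pulp macrophages engulf aged red blood cells, break down their haem and return the iron to the blood. Spic encodes Spi-C, a transcription factor of the PU.1 family on which these macrophages depend. Hmox1 encodes haem oxygenase 1, which opens the haem ring, and Slc40a1 encodes ferroportin, the iron exporter. C1qa, C1qb and C1qc encode the chains of the complement protein C1q, and Cd5l encodes a secreted scavenger protein. Macrophages make the RNA of all 4, but its source in these libraries was not tested. Vcam1 encodes an adhesion molecule that binds the integrin of the Itga4 and Itgb1 chains. Mertk is a receptor for dying cells, and Cd163 is a receptor for haptoglobin-haemoglobin complexes. None of these genes is a defining marker of either dendritic cell subset, although dendritic cells can transcribe some of them.

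Total counts lay between 11330503 reads in WT cDC2 replicate 3 and 36761685 reads in KO cDC2 replicate 2. The targeted gene was counted over its whole length. Zfp366 stood at 48.8, 48.4 and 45.4 CPM (reads relative to the TMM-scaled library total) in KO cDC1 replicates 1, 2 and 3, against 152, 89.2 and 67.5 CPM in WT cDC1. It fell by 1.12 ± 0.27 (SE) on the log2 scale there (edgeR quasi-likelihood, adjusted p = 0.0326). In cDC2 it had 55.0, 80.6 and 65.1 CPM in the libraries labelled KO, against 52.6, 62.4 and 57.4 CPM in those labelled WT, with a log2 fold change of 0.22 ± 0.27. The cDC2 libraries are therefore called KO and WT by their labels alone. The subset labels were checked with 10 markers each: summed cDC1 markers ran from 7867 to 11405 CPM in cDC1 and from 904 to 1400 CPM in cDC2, and summed cDC2 markers from 107 to 737 CPM in cDC1 and from 4010 to 7684 CPM in cDC2.

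The members were present at low to moderate levels in every library. Per kilobase of the deposited gene length, averaged over the 4 groups, Hmox1 was the highest at 38.4 CPM per kb. C1qa (23.0 CPM per kb), C1qc (21.1), Vcam1 (15.3), Spic (12.1), C1qb (11.2) and Slc40a1 (10.03) followed. Cd5l reached 6.15 CPM per kb, Cd163 1.95 and Mertk 0.58. Mertk rested on few reads, between 18 and 77 per library, so its values are the least precise. In bulk libraries, fewer cells of a type and less RNA per cell cannot be told apart.

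**Figure D1:**
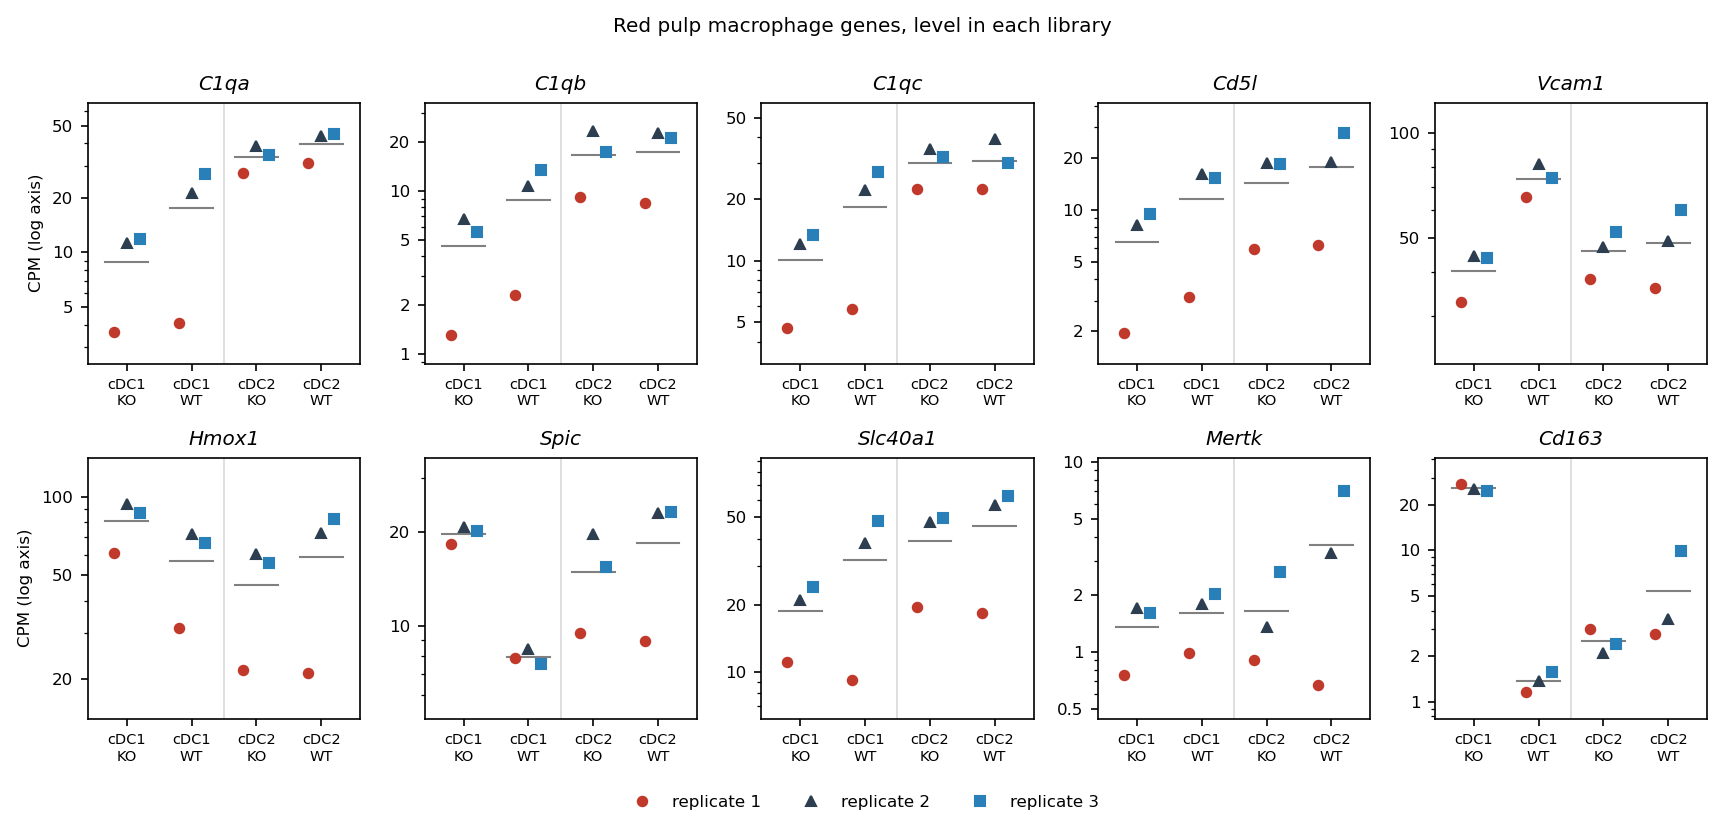
Level of each member in each of the 12 libraries, in CPM on a log axis; grey lines are group means, and the marker gives the replicate number. Replicate 1 lies lowest in all 4 groups for 8 of the 10 genes, whereas Cd163 and Spic in cDC1 separate KO from WT with little spread.

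The 3 C1q genes had lower means in cDC1 than in cDC2 and were lowest in replicate 1 of every group; of the subset differences, that of C1qa in KO passed the test and the other 5 did not. C1qa had 3.66, 11.3 and 11.8 CPM in KO cDC1 replicates 1, 2 and 3, and 4.07, 21.4 and 27.1 CPM in WT cDC1. It had 27.4, 38.8 and 34.2 CPM in KO cDC2 and 31.0, 43.7 and 44.6 CPM in WT cDC2. For C1qa all 6 cDC2 libraries lay above all 6 cDC1 libraries, and KO and WT overlapped within each subset. C1qb had 1.31, 6.79 and 5.65 CPM in KO cDC1, 2.31, 10.8 and 13.4 CPM in WT cDC1, 9.24, 23.3 and 17.4 CPM in KO cDC2, and 8.45, 22.7 and 21.3 CPM in WT cDC2. C1qc had 4.70, 12.04 and 13.3 CPM in KO cDC1, 5.77, 22.2 and 27.1 CPM in WT cDC1, 22.4, 35.2 and 32.2 CPM in KO cDC2, and 22.3, 39.5 and 30.0 CPM in WT cDC2. In cDC1, WT replicates 2 and 3 were the highest for all 3 chains and replicate 1 of either genotype the lowest.

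The shares of the 3 chains in their summed reads differed between libraries. C1qa made up 33.5% to 50.2% of the C1q reads over the 12 libraries, C1qb 13.6% to 24.0% and C1qc 31.2% to 48.6%. The smallest C1qb share, 13.6% in KO cDC1 replicate 1, rested on 33 of 243 reads, with an exact 95% binomial interval of 9.54% to 18.5%. In WT cDC2 the C1qb share was 13.7% (interval 12.1% to 15.4%) in replicate 1 and 21.4% (19.7% to 23.2%) in replicate 2. In KO cDC2 it was 15.7% (14.1% to 17.3%) in replicate 1 and 24.0% (22.6% to 25.4%) in replicate 2, so in both groups the intervals lay apart. The C1qa share ran from 37.4% to 38.3% in KO cDC1 and from 33.5% to 40.1% in WT cDC1, against 39.9% to 46.4% in KO cDC2 and 41.3% to 50.2% in WT cDC2. The intervals reflect counting alone; with no molecular identifiers, some reads may be copies of 1 molecule.

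Cd5l followed the same order of groups. It had 1.95, 8.17 and 9.46 CPM in KO cDC1, 3.13, 16.1 and 15.4 CPM in WT cDC1, 5.95, 18.7 and 18.4 CPM in KO cDC2, and 6.31, 19.0 and 27.8 CPM in WT cDC2. Replicate 1 was below both others in all 4 groups, at 0.20 to 0.32 of their mean, and KO and WT overlapped in both subsets. Group means were 6.53 ± 4.02 CPM in KO cDC1, 11.5 ± 7.28 in WT cDC1, 14.3 ± 7.26 in KO cDC2 and 17.7 ± 10.8 in WT cDC2 (SD), so no neighbours in that order differed beyond their spread.

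Of the genes of haem and iron handling, Slc40a1 behaved like Cd5l and Hmox1 did so in part. Slc40a1 had 11.1, 21.1 and 24.2 CPM in KO cDC1, 9.18, 38.3 and 48.4 CPM in WT cDC1, 19.6, 47.4 and 49.9 CPM in KO cDC2, and 18.4, 57.2 and 62.2 CPM in WT cDC2. Hmox1 had 60.7, 94.2 and 86.8 CPM in KO cDC1, 31.5, 71.9 and 66.4 CPM in WT cDC1, 21.6, 60.2 and 55.5 CPM in KO cDC2, and 21.2, 72.9 and 82.4 CPM in WT cDC2. Both were lowest in replicate 1 of all 4 groups. At each replicate number Hmox1 was higher in KO than in WT cDC1, although replicate 1 of KO lay below WT replicates 2 and 3, so the groups overlapped. Slc40a1 in replicates 2 and 3 of cDC1 was lower in KO than in WT, which was not so in replicate 1.

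Spic separated the genotypes in cDC1 and the replicate numbers in cDC2. It had 18.3, 20.9 and 20.2 CPM in KO cDC1, against 7.86, 8.42 and 7.52 CPM in WT cDC1. In cDC2 it had 9.46, 19.7 and 15.5 CPM in KO and 8.94, 23.1 and 23.2 CPM in WT. The cDC1 groups did not overlap and varied little within themselves, at 19.8 ± 1.34 CPM in KO and 7.93 ± 0.46 CPM in WT (SD). The cDC2 groups overlapped, and replicate 1 was the lowest in each.

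Cd163 showed the widest gap between genotypes. It had 27.4, 25.4 and 24.6 CPM in KO cDC1, from 689, 643 and 600 reads, against 1.15, 1.38 and 1.56 CPM in WT cDC1, from 21, 27 and 27 reads. In cDC2 it had 3.02, 2.10 and 2.39 CPM in KO and 2.80, 3.53 and 9.93 CPM in WT. KO cDC1 stood above every other group, and its replicate 1 was the highest of its 3 libraries. WT cDC2 replicate 3 was the single high value elsewhere.

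Vcam1 and Mertk complete the set. Vcam1 had 32.9, 44.4 and 43.9 CPM in KO cDC1, against 65.3, 81.2 and 74.3 CPM in WT cDC1, and these groups did not overlap. In cDC2 it had 38.3, 47.3 and 52.0 CPM in KO and 36.1, 49.1 and 60.2 CPM in WT, so WT cDC1 stood above the other 3 groups. Mertk had 0.76, 1.70 and 1.60 CPM in KO cDC1, 0.99, 1.79 and 2.02 CPM in WT cDC1, 0.91, 1.34 and 2.64 CPM in KO cDC2, and 0.67, 3.30 and 7.01 CPM in WT cDC2. Its groups overlapped throughout, with 1 high library in WT cDC2.

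Start-site windows were at hand for 6 members, each of 300 bases (250 before and 50 after the annotated start), from RefSeq on GRCm38.p6. The windows of C1qb and Cd5l, which moved with the replicate number, and of Spic and Cd163, which separated the genotypes in cDC1, are shown 5′ to 3′ on the gene's strand. Capitals mark matches on either strand to GAGGAA, the core bound by PU.1 family proteins, or to TGCTGA, a half-site of Maf proteins. The AP-1 site, spelled TGANTCA, was searched as well and matched in none of the 6 windows. The same held for the core promoter element known as the TATA box, searched by the letters TATAAA. No 2 matches overlapped.
C1qb, chr4:136886151-136886450, minus strand: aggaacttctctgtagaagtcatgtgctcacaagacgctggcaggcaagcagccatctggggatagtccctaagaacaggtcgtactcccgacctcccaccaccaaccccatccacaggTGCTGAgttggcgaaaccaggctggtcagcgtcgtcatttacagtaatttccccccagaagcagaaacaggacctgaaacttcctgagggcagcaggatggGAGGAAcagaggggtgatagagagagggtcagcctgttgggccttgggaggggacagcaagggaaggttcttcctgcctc
Cd5l, chr3:87357631-87357930, plus strand: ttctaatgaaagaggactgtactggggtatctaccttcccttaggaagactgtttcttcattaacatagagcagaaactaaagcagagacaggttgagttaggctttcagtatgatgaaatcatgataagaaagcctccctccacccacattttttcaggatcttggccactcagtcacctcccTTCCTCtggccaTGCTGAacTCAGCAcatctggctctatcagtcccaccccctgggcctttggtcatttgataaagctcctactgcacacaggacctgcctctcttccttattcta
Spic, chr10:88682974-88683273, minus strand: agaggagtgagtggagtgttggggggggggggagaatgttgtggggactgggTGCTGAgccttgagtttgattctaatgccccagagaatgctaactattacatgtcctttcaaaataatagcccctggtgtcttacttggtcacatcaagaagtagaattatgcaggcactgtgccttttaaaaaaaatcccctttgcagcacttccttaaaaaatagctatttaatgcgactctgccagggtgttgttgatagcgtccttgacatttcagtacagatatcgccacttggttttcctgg
Cd163, chr6:124304401-124304700, plus strand: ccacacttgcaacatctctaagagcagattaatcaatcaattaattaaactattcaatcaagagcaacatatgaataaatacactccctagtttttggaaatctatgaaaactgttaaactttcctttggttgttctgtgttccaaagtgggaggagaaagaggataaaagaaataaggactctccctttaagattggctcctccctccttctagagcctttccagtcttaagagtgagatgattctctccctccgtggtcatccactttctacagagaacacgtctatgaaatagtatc

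GAGGAA occurred once each in the windows of C1qb, C1qc and Cd5l and in none of those of Spic, Cd163 and Mertk. It occurred in 28.3% of all 32851 windows of that length. TGCTGA occurred once in C1qb, once in Spic and at 2 places in Cd5l, against 19.5% of all windows with at least 1 match. The C1qb window matched both, with its GAGGAA 30 bases before the start, and the Cd163 window matched neither. These are matches of letters and show no binding.

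The comparison by replicate number asked which members separated libraries numbered 1 from those numbered 2 and 3, with the 4 group means in the model. In all, 5 members fell in replicate 1: the secreted scavenger Cd5l, the iron and haem genes Slc40a1 and Hmox1, and the C1q chains C1qb and C1qc. Cd5l fell by 1.99 ± 0.18 (SE) on the log2 scale (adjusted p = 0.00047), C1qb by 1.72 ± 0.24 (adjusted p = 0.00605), Slc40a1 by 1.55 ± 0.19 (adjusted p = 0.00389), Hmox1 by 1.23 ± 0.19 (adjusted p = 0.0105) and C1qc by 1.13 ± 0.24 (adjusted p = 0.0389). C1qc lost its call when any of 9 single libraries was left out (adjusted p up to 0.0941; it passed without replicate 1 of WT cDC1, or replicates 1 or 3 of WT cDC2), and Hmox1 lost it without KO cDC2 replicate 1 (0.0611). Over all 13415 genes tested, 2.63% were called 1.59% being higher and 1.04% lower in replicate 1. C1qa, Mertk, Vcam1 and Spic did not pass, with log2 fold changes of -1.16 ± 0.31, -1.47 ± 0.41, -0.41 ± 0.12 and -0.59 ± 0.22. Cd163 had -0.20 ± 0.31. The members' median was -1.19, beside 0.03 over all genes. For 8 of the 10 members replicate 1 was lowest in all 4 groups, which held for 4.06% of genes; Spic did so in 3 groups and Cd163 in 2. Each mouse pool gave 2 of the 12 libraries, so the comparison sets 2 pools against 4 and its p-values treat libraries of a pool as independent. On mean log2 CPM per pool (6 pools, limma with a trend, chosen after the values were seen), 9 members were called, all but Cd163, beside 23.2% of all genes. That earlier results of these data had already set replicate 1 apart makes these tests descriptive.

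Genes of red blood cells and neutrophils were low in the same libraries. Of 8 tested erythroid and platelet genes 5 fell, among them Hba-a1 (-2.62 ± 0.21, log2), Hba-a2 (-2.81 ± 0.24) and Hbb-bs (-3.32 ± 0.30), which encode globin chains; the near-identical Hba-a1 and Hba-a2 may share reads. Their summed level, over 10 counted genes, was 33.6 CPM in KO cDC1 replicate 1, 31.3 in WT cDC1, 14.2 in KO cDC2 and 25.2 in WT cDC2, whereas replicates 2 and 3 ran from 98.4 to 244 CPM. Of 7 tested neutrophil genes 3 fell: S100a9 (-3.51 ± 0.75), S100a8 (-3.01 ± 0.66) and Camp (-3.96 ± 0.92). Summed over 10 genes they were at 1.43 to 7.5 CPM in replicate 1 and 7.86 to 94.4 CPM in replicates 2 and 3, and Elane was at 0 in all 12 libraries. The gap was narrowest in KO cDC1, with a neutrophil sum of 5.97 CPM in replicate 1 against 7.86 and 12.8 CPM in replicates 2 and 3. The part of such cells in the members' levels was not tested.

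Other macrophage genes split. Of 15 tested further genes of red pulp macrophages, Fcna, a ficolin (-2.14 ± 0.17, log2), and Nr1h3, the oxysterol receptor LXR alpha (-0.996 ± 0.22), fell in replicate 1. The other 13 did not pass; their list's median was -0.43. Adgre1, which encodes F4/80, had 384, 83.6 and 85.8 CPM in KO cDC2 and 137, 273 and 195 CPM in WT cDC2, so replicate 1 was the highest in KO cDC2 and the lowest in WT cDC2. Of 5 marginal zone macrophage genes, 1 fell, again Nr1h3. Among 18 tested genes of haem and iron handling, Blvrb, a biliverdin reductase, fell by 1.11 ± 0.19, and Slc11a2, the iron importer DMT1, rose by 0.54 ± 0.11.

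Further lists of functions and cell types were counted in the same comparison. Among the tested complement genes, Itgax (0.64 ± 0.12, log2) rose in replicate 1, as did Itgb7 (0.67 ± 0.12) among 7 partners and regulators of Vcam1 and Ccr2 (1.31 ± 0.24) among 10 monocyte genes. Of 8 plasmacytoid dendritic cell genes, Ly6d and Klk1 fell, with Klk1 at 0 to 29 reads and a list median of -1.03. Of 16 genes for uptake of dead cells, 9 of B and plasma cells, 4 of T cells, 5 of NK cells and 4 of stroma, and of 10 markers of each dendritic cell subset, 0 passed.

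**Figure D2:**
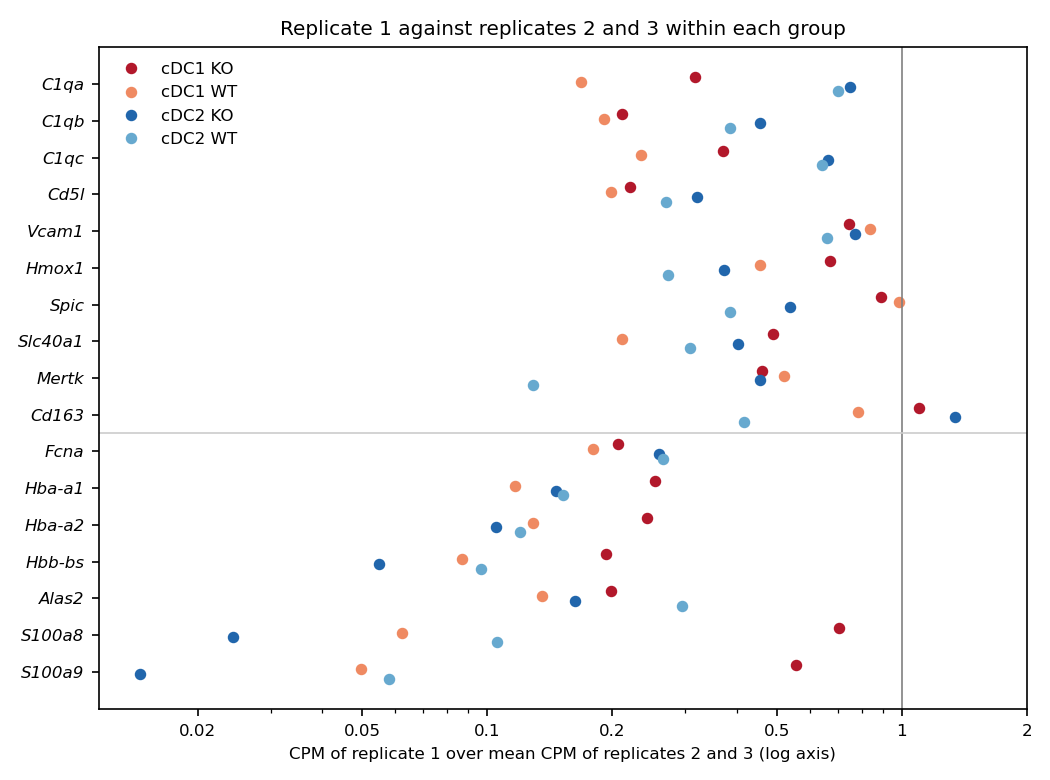
CPM of replicate 1 divided by the mean CPM of replicates 2 and 3, on a log axis, for the 10 members (above the line) and 7 other genes, with 1 point per group. The globin points reach at most 0.253; Cd5l lies between 0.20 and 0.32, and Vcam1 between 0.66 and 0.84.

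Setting each member against the C1q chains in the same library shows how closely it kept step with them. Per 100 reads of C1qa, C1qb and C1qc together, Cd5l had between 10.1 and 30.8 reads over the 12 libraries, a 3.05-fold range, and Slc40a1 between 29.8 and 114, a 3.84-fold range. The range was 7.55-fold for Mertk, 11.6-fold for Vcam1, 17.0-fold for Spic, 18.3-fold for Hmox1 and 131-fold for Cd163. Cd5l and Slc40a1 thus had the narrowest ranges, but neither kept a fixed proportion. Within cDC1, Slc40a1 had 114, 70.1 and 78.8 reads per 100 C1q reads in KO replicates 1, 2 and 3, and 75.6, 70.4 and 71.7 in WT, so the genotypes overlapped. In cDC2 Slc40a1 had 33.1, 48.7 and 59.5 in KO and 29.8, 54.0 and 64.9 in WT, all below every cDC1 library. Cd5l in cDC2 had 10.1, 19.2 and 21.9 in KO and 10.2, 17.9 and 29.0 in WT. Both ratios were lowest in replicate 1 of both cDC2 groups. Cd163 had 284, 84.4 and 79.9 in KO cDC1, against 9.5, 2.54 and 2.31 in WT cDC1. Spic had 189, 69.4 and 65.6 in KO cDC1, against 64.7, 15.5 and 11.1 in WT cDC1. At each replicate number both genes were higher in KO, and for both replicate 1 was the highest of its group.

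**Figure D3:**
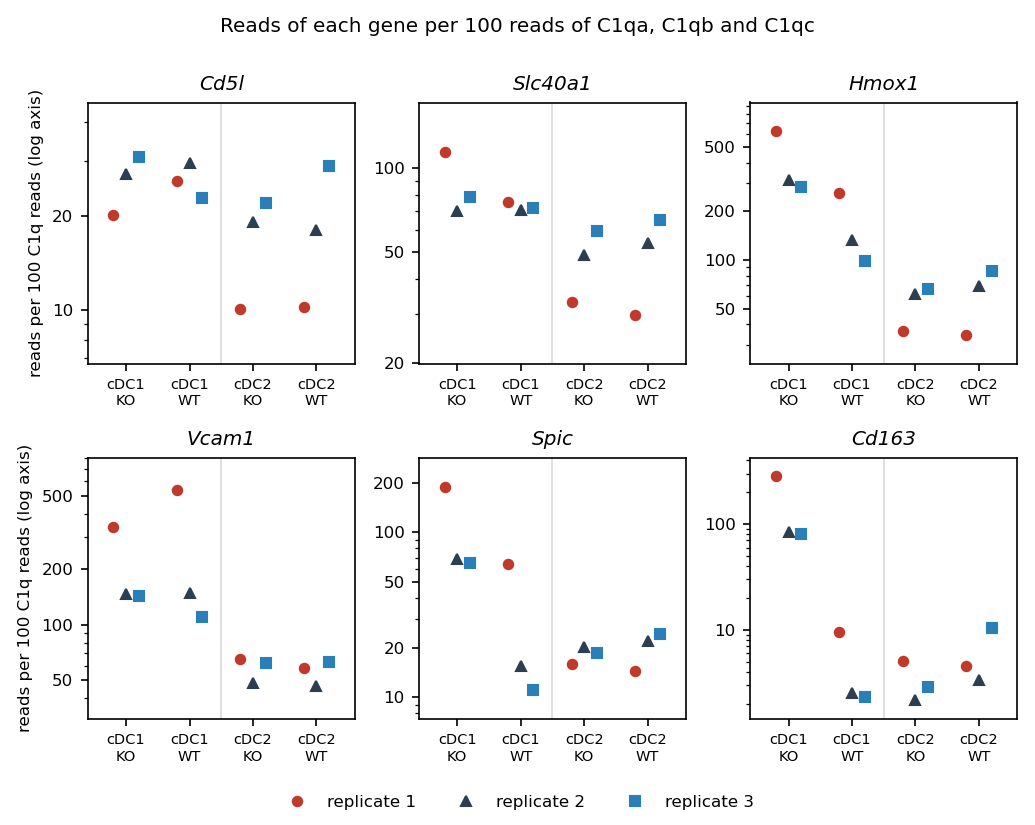
Reads of 6 members per 100 reads of the 3 C1q genes in the same library, on log axes, by group and replicate number. Cd5l and Slc40a1 stay within a 3.05-fold and a 3.84-fold range, while Cd163 in KO cDC1 lies at 79.9 to 284, above all other libraries.

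In cDC1, KO was compared with WT in a model of the 4 groups. Cd163 rose by 4.24 ± 0.45 (SE) on the log2 scale (edgeR quasi-likelihood, adjusted p = 0.000155), and Vcam1 fell by 0.87 ± 0.23 (adjusted p = 0.0475). These 2 of 10 members compare with 5.32% of all genes called, 3.6% of all genes higher and 1.72% lower. Spic had a log2 fold change of 1.32 ± 0.35 and missed the threshold (adjusted p = 0.0507). The libraries of KO and WT did not overlap for Cd163, Vcam1 and Spic, 3 of 10 members, and for 26.9% of all genes tested. The other 7 members did not pass: C1qa had -0.97 ± 0.56, C1qb -0.94 ± 0.67, C1qc -0.87 ± 0.50, Cd5l -0.82 ± 0.72, Slc40a1 -0.77 ± 0.59, Mertk -0.24 ± 0.72 and Hmox1 0.51 ± 0.49. Their standard errors include the gap between replicate 1 and the others. The members' median was -0.79, beside 0.00 over all genes.

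The calls of Vcam1 and Spic changed between settings. Vcam1 lost its call without any one of KO cDC1 replicates 1, 2 or 3 (adjusted p = 0.209, 0.129 and 0.133), of WT cDC1 replicates 2 or 3 (0.198 and 0.138), of KO cDC2 replicates 2 or 3 (0.0756 and 0.0734) or of WT cDC2 replicate 2 (0.0647), and with no low-count filter. Spic passed by DESeq2 (0.00973), with the compared libraries alone (0.00586), with the length offset (0.0234), with the replicate block (0.0324) and with no low-count filter. It also passed without WT cDC1 replicate 1 (0.0402), KO cDC2 replicate 1 (0.0353) or WT cDC2 replicates 1 or 3 (0.00826 and 0.0484). Cd163 passed under all 22 alternatives, with a log2 fold change between 4.00 and 4.35.

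Within replicates 2 and 3 alone, with 2 libraries per group, 9 of 10 members were called in cDC1, all but Mertk. In this fit 47.8% of all genes tested were called. Replicate 1 was left out when earlier results had already set it apart, so the standard errors here measure only the spread between the remaining libraries. C1qa fell by 1.09 ± 0.16 (SE) on the log2 scale, Slc40a1 by 0.96 ± 0.15, Cd5l by 0.86 ± 0.20, C1qb by 0.98 ± 0.22, C1qc by 0.98 ± 0.18 and Vcam1 by 0.84 ± 0.13, whereas Spic rose by 1.34 ± 0.18, Hmox1 by 0.36 ± 0.12 and Cd163 by 4.06 ± 0.42. The erythroid sum moved the same way as the genes that fell: it was 98.4 and 112 CPM in KO cDC1 replicates 2 and 3, against 239 and 244 CPM in WT cDC1. The neutrophil sum was 7.86 and 12.8 CPM in KO and 15.9 and 23.8 CPM in WT.

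A term for the haemoglobin level (the mean log2 CPM of Hba-a1, Hba-a2 and Hbb-bs) was then added, an alternative chosen after the values had been seen. With it, 4 members were called in cDC1 and 6.42% of all genes. Cd163 had 4.35 ± 0.46, Spic 1.5 ± 0.28 (adjusted p = 0.00834), Hmox1 1.01 ± 0.20 (adjusted p = 0.0124) and Vcam1 -0.74 ± 0.15 (adjusted p = 0.0137). C1qa had -0.47 ± 0.43, C1qb -0.30 ± 0.37, C1qc -0.41 ± 0.35, Cd5l -0.08 ± 0.26 and Slc40a1 -0.03 ± 0.22, each nearer to 0 than without the term. Hmox1 lay farther from 0 than the 0.51 it had without the term. The erythroid sum was low in replicate 1 of all 4 groups, and in cDC1 replicates 2 and 3 it was lower in KO than in WT. The term therefore cannot be fully told apart from replicate number or genotype, and what the shifts reflect was not tested.

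**Figure D4:**
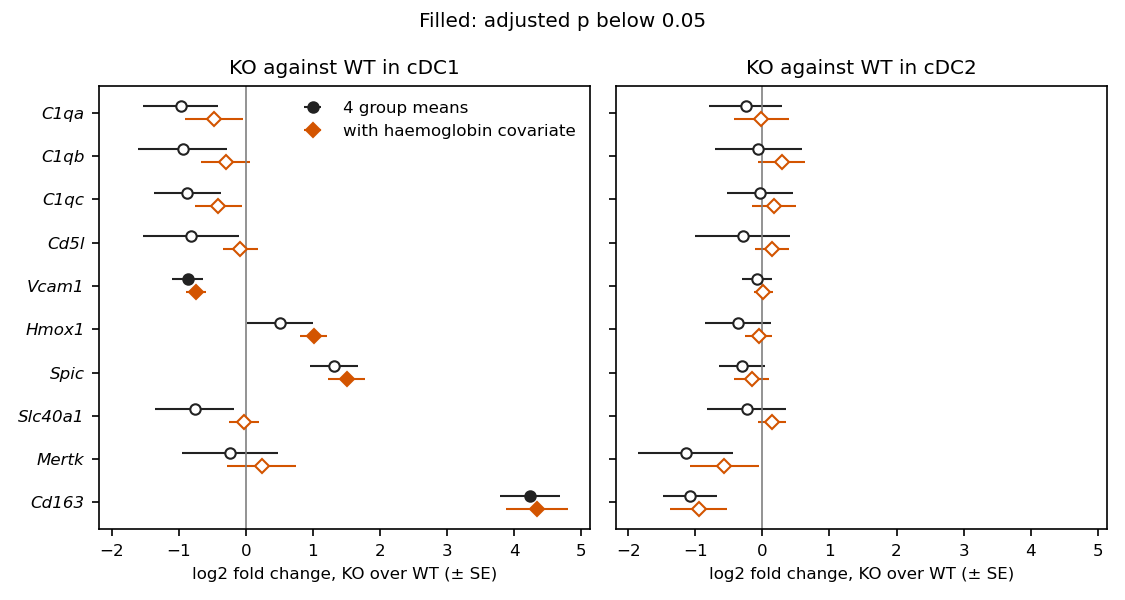
Log2 fold change (± SE) of KO over WT for each member in cDC1 (left) and cDC2 (right), with 4 group means (circles) and with the haemoglobin level as a covariate (diamonds); filled markers have an adjusted p below 0.05. With the covariate, Cd163, Spic, Hmox1 and Vcam1 are filled in cDC1, and no marker is filled in cDC2.

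Zfp366, the targeted gene, lies on chromosome 13, and Cd163 lies on chromosome 6 (124304636 to 124330529, GRCm38). Of 38 tested genes within 1 Mb of it, 5 rose in KO cDC1 and 0 fell, 13.2% against the 5.32% over all genes. These neighbours, looked up after the values of Cd163 had been seen, were Ptpn6 (1.35 ± 0.20, log2), P3h3 (2.40 ± 0.58), Gpr162 (4.96 ± 0.49), Cd4 (2.28 ± 0.51) and Ptms (0.96 ± 0.18). Spic and Vcam1 had 14 tested neighbours each in such a window, with 0 called. C1qa, C1qb and C1qc lie side by side on chromosome 4. Each had 27 tested neighbours, counting the other C1q genes, of which 1 rose and 2 fell. Cd163l1, the relative of Cd163, had 0 reads in all 12 libraries.

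Among the further genes of red pulp macrophages, 3 of 15 fell in KO cDC1 and 0 rose, beside 1.72% of all genes lower and 3.6% higher. Slc11a1, the phagosomal metal transporter NRAMP1, had 21.0 ± 1.45 CPM in KO and 132 ± 31.0 CPM in WT (log2 fold change -2.65 ± 0.25 SE). Treml4, a receptor also carried by cDC1, had 159 ± 4.31 CPM in KO and 303 ± 47.0 CPM in WT (-0.93 ± 0.19), and Trf, transferrin, had 82.8 ± 7.92 CPM in KO and 163 ± 25.1 CPM in WT (-0.97 ± 0.24). The list's median was -0.09. Genes of haem and iron handling (18 tested), of marginal zone macrophages (5) and of erythroid cells and platelets (8) had 0 calls in KO against WT cDC1, with medians of -0.30, -0.33 and -1.04.

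The pathways of the other members gave a few calls in cDC1, where 5.32% of all genes were called. Of 14 complement genes, Itgam, the alpha chain of complement receptor 3, had 125 ± 4.20 CPM in KO and 4.47 ± 1.75 CPM in WT (4.80 ± 0.42, log2), and C3ar1, the C3a receptor, had 4.54 ± 2.51 CPM in KO and 0.34 ± 0.26 CPM in WT (3.71 ± 0.80). Of 16 genes for uptake of dead cells, Itgb3 (3.44 ± 0.37), an integrin chain, and Timd4 (2.18 ± 0.44), a phosphatidylserine receptor, rose. Timd4 had 10.8 ± 2.81 CPM in KO and 2.38 ± 0.94 CPM in WT. Of 7 partners and regulators of Vcam1, Nfkb1 rose (1.01 ± 0.26), the opposite direction to Vcam1 itself.

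Markers of other cells were counted in the same comparison, which called 5.32% of all genes. Of 10 monocyte genes, Ms4a4c (2.23 ± 0.21, log2), Cx3cr1 (2.05 ± 0.42) and Ccr2 (2.92 ± 0.63) rose and 0 fell; their list summed to 2984 to 4181 CPM in KO cDC1 and 889 to 2518 CPM in WT cDC1. Of 10 cDC2 markers 9 rose, led by Dtx1 (3.97 ± 0.23), Itgam, Clec4a4 (3.77 ± 0.35) and Irf4 (2.66 ± 0.26), and of 10 cDC1 markers Itgae fell (-4.02 ± 0.66). Of 8 plasmacytoid genes Ccr9 (-1.98 ± 0.47) and Pacsin1 (-3.19 ± 0.85) fell. Neutrophil (7 tested), B and plasma cell (9), T cell (4), NK cell (5) and stromal genes (4) had 0 calls. The part of monocytes or other cells in the rise of Cd163 was not tested.

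In cDC2, no member was called in the libraries labelled KO against those labelled WT, nor was any of the 13415 genes (0%; 271 genes had an unadjusted p below 0.05 in edgeR, and DESeq2 and limma-voom also called 0). The log2 fold changes were -0.25 ± 0.54 for C1qa, -0.07 ± 0.65 for C1qb, -0.03 ± 0.49 for C1qc, -0.30 ± 0.71 for Cd5l, -0.24 ± 0.59 for Slc40a1, -0.36 ± 0.49 for Hmox1, -0.30 ± 0.35 for Spic, -0.08 ± 0.23 for Vcam1, -1.15 ± 0.71 for Mertk and -1.08 ± 0.40 for Cd163. None of the 10 had groups that did not overlap, against 5.88% of all genes. The standard errors, from 0.23 for Vcam1 to 0.71, set the size of change that could be seen at this depth and n. Every one of the 16 other lists had 0 calls. Within replicates 2 and 3 alone, with 2 libraries per group, Cd163 was the 1 member called, beside 1039 of 13461 genes tested. It was lower in KO, and the WT libraries compared included the single high one, WT cDC2 replicate 3.

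Whether the effect of the genotype differed between the subsets was tested as an interaction, which called 1.42% of all genes. Cd163 was the only member called, with a difference of 5.32 ± 0.60 (SE) on the log2 scale (adjusted p = 0.000842). Spic had 1.62 ± 0.49 (adjusted p = 0.186) and Vcam1 -0.79 ± 0.32 (adjusted p = 0.422), so for these the difference between the subsets was not established. With mouse pools as a block Cd163 had 5.15 ± 0.49 and was called.

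Between the subsets, cDC1 had less Cd163 and Spic than cDC2 in WT, by -1.96 ± 0.43 (SE) and -1.21 ± 0.35 on the log2 scale (adjusted p = 0.00565 and 0.0276), where 21.2% of all genes were called. The Cd163 value in WT ran from -2.27 to -1.21 over 23 alternatives and was called in 22 of them. Its cDC2 mean in WT included the single high library, WT cDC2 replicate 3. In KO the order of Cd163 was the opposite: it was higher in cDC1 by 3.36 ± 0.42 (adjusted p = 0.00017), and C1qa was lower in cDC1 by -1.91 ± 0.57 (adjusted p = 0.0365), with 16.9% of genes called. C1qc (-1.58 ± 0.51, adjusted p = 0.0501) and C1qb (-1.86 ± 0.67, adjusted p = 0.079) missed the threshold in KO. The labels join cDC1 and cDC2 of a pool. With the pool as a block, 6 members were called in KO (Cd163, C1qb, Cd5l, Slc40a1, C1qc and C1qa), and in WT Cd163 alone was called, Spic having an adjusted p of 0.0713. In WT, Vcam1 was the 1 member with a higher mean in cDC1 than in cDC2 (0.60 ± 0.23, adjusted p = 0.0808).

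The genes whose level ran most closely with the C1q chains were ranked by Pearson correlation with the mean log2 CPM of C1qa, C1qb and C1qc over the 12 libraries. The first 10 of 11605 other genes were Mzb1 (r = 0.97), Clec4n (0.96), Pld3 (0.96), C6 (0.96), Jchain (0.95), Rhob (0.95), Blvrb (0.95), Igkc (0.94), Kat8 (0.94) and Ndufa8 (0.94). Mzb1, Jchain and Igkc are genes of plasma cells and Clec4n encodes Dectin-2. Mzb1 and C6 lay near the minimum of 1 CPM set for the ranking, with means of 1.27 and 1.15 CPM over the 12 libraries. All 10 were lower on average in both cDC1 groups than in both cDC2 groups, and 7 of them had their lowest value in replicate 1 of all 4 groups. Among the members, Cd5l (r = 0.90) would take rank 43 and Slc40a1 (0.90) rank 52, followed by Mertk (0.59), Vcam1 (0.25), Spic (0.16), Hmox1 (0.11) and Cd163 (-0.37). Pairs of libraries share a mouse pool, 6 share each subset, and depth varied, so these values are descriptions.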

How the data were processed

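RNA was measured in 12 libraries, 3 in each of 4 groups, which follow the labels. Per the submitters' processing notes, the genome build was GRCm38 (mm10) and the counter featureCounts, with versions not given in the sources used here. The authors deposited unnormalized counts of reads in 27179 Entrez genes, with a gene length. RefSeq gave symbols for 25275 genes, and the 1904 without one held 2.23% of the reads.

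Counts were fitted with edgeR 4.0.16 in R 4.3.3: filterByExpr (13415 genes), TMM, a mean for each of 4 groups, and quasi-likelihood F tests (robust), which are two-sided, with Benjamini-Hochberg adjustment over all genes tested and a threshold of 0.05. Standard errors came from dividing the log2 fold change by the root of F. Levels are TMM-scaled CPM. The replicate-number comparison added 1 term. Alternatives were other scalings, filters, DESeq2 1.42.0, limma 3.58.1 voom, blocks, subsets of libraries, a length offset and leaving out each library. A haemoglobin covariate and a fit on means per mouse pool were added after the values were seen. Promoter windows were searched for 4 short motifs on both strands. Hbb-bt and Ahsp were not analysed here. A complement gene of the replicate comparison is not reported here.

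All members were named, with up to 4 called genes of smallest p per further list and genotype comparison, up to 3 in the replicate comparison, and the 10 genes most like C1q with a mean CPM of at least 1; Adgre1, Cd163l1, Klk1's reads and the neighbours of Cd163 were added after values were seen. The 10 members and the 16 other lists were chosen with earlier results of these data known. Total counts of 11330503 to 36761685 and n = 3 limit the precision. Nothing says how many mice a pool held; p-values measure the spread between libraries, of which cDC1 and cDC2 of a pool share their mice.

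Deviations from the group means had correlations of -0.07 to 0.11 between genotypes at the same number. This measure missed the pairing by pool that the labels give in WT, so it cannot decide whether numbers pair the genotypes. Pools join cDC1 and cDC2 per the labels; same-pool correlations were 0.14 to 0.26 in KO and -0.20 to -0.07 in WT.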

Additional observations from a re-analysis of the deposited data

Results flagged for a closer look

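Cd163 was the 1 member whose genotype effect differed between the subsets by a test of the difference itself, with a log2 difference of 5.32 ± 0.60 (SE; edgeR interaction, adjusted p = 0.000842). It stood at 25.8 ± 1.47 CPM in KO cDC1 and 1.36 ± 0.20 CPM in WT cDC1, and at 2.5 ± 0.47 CPM in KO cDC2 and 5.42 ± 3.92 CPM in WT cDC2 (SD, n = 3 each). All 3 KO cDC1 libraries lay above all 3 WT cDC1 libraries, and the cDC2 groups overlapped. The difference was called under all 22 alternatives, between 4.57 and 5.64.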

How the results depend on the processing

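Cd163 in KO against WT cDC1 kept its direction and call under all 22 alternatives, and so did its difference between subsets and its cDC1 against cDC2 value in KO (23 alternatives). Counts of called members moved more. In KO against WT cDC1, 2 were called; 9 were within replicates 2 and 3, 4 with the haemoglobin covariate (chosen after the values were seen) and 1 to 5 when leaving out a library, of which WT cDC1 replicate 1 gave 5. In cDC2, 0 were called, and 1 (Cd163) within replicates 2 and 3, beside 1039 of 13461 genes. For the difference of the effects, 1 was called. Within replicates 2 and 3 it was 8, beside 5157 of 13461 genes, and with the covariate 2, beside 322 of 13415 genes. Leaving out a library gave 1 to 2.

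For cDC1 against cDC2 in WT, 2 were called. The replicate block gave 5, the mouse pool block 1, limma-voom 1 and the compared libraries alone 0. Replicates 2 and 3 alone gave 9, beside 6391 of 13461 genes, and the covariate 8, beside 3908 of 13415. Leaving out a library gave 1 to 2. In KO, 2 were called. The replicate block gave 7, the mouse pool block 6, DESeq2 4, no low-count filter 1 and the compared libraries alone 4. Replicates 2 and 3 alone gave 7, beside 6620 of 13461 genes, and the covariate 7, beside 3150 of 13415. Leaving out a library gave 1 to 4. In the replicate comparison 5 were called, 8 by DESeq2, 9 on means per mouse pool (chosen after the values were seen) and 3 to 6 when leaving out a library (3 without KO cDC2 replicate 1). The cause was not tested. The replicate block added Spic to the calls of KO against WT cDC1 (adjusted p = 0.0324) and changed no call in cDC2 or in the difference. By the labels, only the numbers are shared between genotypes, and same-number correlations of -0.07 to 0.11 cannot decide whether they pair the libraries.

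Over all genes, KO against WT cDC1 gave 714 calls, 1283 by DESeq2, 6438 within replicates 2 and 3 and 318 (without WT cDC1 replicate 2) to 3052 (without WT cDC1 replicate 1) when leaving out a library. KO against WT cDC2 gave 0 and 1039 within replicates 2 and 3. The replicate comparison gave 353, and 1602 by DESeq2, 3106 on means per mouse pool and 70 (without KO cDC2 replicate 3) to 714 (without KO cDC1 replicate 1) when leaving out a library. The difference gave 190, 461 by DESeq2, 116 with the pool block, 302 with the length offset, 322 with the covariate and 5157 within replicates 2 and 3. cDC1 against cDC2 gave 1537 in WT and 4172 in KO with the compared libraries alone.

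Uncalled values changed sign as follows (log2). In KO against WT cDC2, C1qb reached 0.018 with limma-voom, 0.29 with the covariate and -0.40 to 0.23 when leaving out a library. C1qc reached 0.017 with the length offset, 0.17 with the covariate and -0.21 to 0.18 when leaving out a library. With the covariate Cd5l was 0.15, Vcam1 0.014 and Slc40a1 0.14; leaving out a library gave -0.70 to 0.18, -0.25 to 0.11 and -0.61 to 0.087 for these 3. Mertk in KO against WT cDC1 was 0.24 with the covariate and -0.49 to 0.046 when leaving out a library; for cDC1 against cDC2 in KO it was -0.55 to 0.26. Hmox1 for cDC1 against cDC2 in WT was 0.12 with limma-voom, 0.048 with the replicate block, 0.079 with the mouse pool block and -0.45 to 0.27 when leaving out a library. Cd163 in the replicate comparison was -0.43 to 0.13. Plain library totals moved no group mean of a member beyond 1 SD. The few reads of Mertk limit every statement on it.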

Other observations

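WT cDC2 replicate 3, the library with the fewest reads, had the highest Mertk (7.01 CPM, against 0.67 and 3.30 CPM in replicates 1 and 2) and the highest Cd163 of its group (9.93, against 2.80 and 3.53 CPM). These rest on 77 and 109 reads. The same library had 1.91 CPM of Klf1, an erythroid transcription factor, against 0 and 0.23 CPM in replicates 1 and 2.

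The genes given here were chosen after their values were seen. Itga2b, the platelet integrin chain CD41, had 10.8, 8.05 and 8.23 CPM in KO cDC1, against 2.86, 2.09 and 0.93 CPM in WT cDC1, without overlap, but did not pass the test (log2 fold change 2.20 ± 0.96 SE; edgeR, adjusted p = 0.240). Pf4 and Ppbp, which encode platelet chemokines, reached at most 0.42 and 0.46 CPM in any of the 12 libraries. Siglec1, a marker of metallophilic macrophages, and Marco, a marker of marginal zone macrophages, had at most 1.45 and 1.81 CPM in any library. Their list of 5 genes, which also holds Cd209b, Msr1 and Nr1h3, summed to 23.1 to 48.7 CPM in cDC2 and 3.38 to 10.9 CPM in cDC1. The low values of Siglec1 and Marco thus do not stand for the whole list.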
